A study of Sus scrofa with 6 samples.

Results

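The heat-shock and J-domain chaperone genes were described in brain RNA of Rongchang pigs and wild boars. Members were all genes whose symbol starts with HSPA, HSPB, HSPD, HSPE, HSPH, HSP90 or DNAJ, with the identifier of the highest mean kept for each symbol. This gave 53 genes of 18225 gene identifiers in the deposited table, of which 10937 (60.0%) could be paired with a symbol. They were 9 HSPA, 5 HSPB, 1 HSPD, 1 HSPE, 1 HSPH, 3 HSP90, 3 DNAJA, 9 DNAJB and 21 DNAJC symbols. The HSPB count includes HSPBP1 and HSPBAP1, which share the letters but encode no small heat-shock protein. A further 12 symbols of these families were not analysed here, among them HSPA6, HSPB1, DNAJA4, DNAJB6 and DNAJC5. HSPA1A and HSPA1B, the classical stress-induced HSP70 genes, were likewise not analysed here under those symbols.

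One group held the brains of 3 Rongchang pigs, a Chinese domestic breed, and the other those of 3 wild boars, which carry no further strain or population name in the labels. All 6 animals were 210 days old, no treatment was labelled for either group, and 1 library of poly(A)-selected RNA was sequenced per animal. The labels give the tissue as brain without a region and number the animals 1 to 3 in each group. The p-values below therefore measure the spread between these libraries, and in such bulk tissue fewer cells of a type and less RNA per cell cannot be told apart.

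Molecular chaperones bind unfolded segments of other proteins and let them fold, refold or be degraded. HSP70 proteins (the HSPA genes) bind and release clients in a cycle driven by ATP, J-domain proteins (the DNAJ genes) bring clients and start that cycle, and HSP110 proteins (HSPH1, HSPA4, HSPA4L) reset it. HSP90 proteins mature kinases and steroid receptors, and small heat-shock proteins hold unfolded proteins until HSP70 takes them. Some members are made in every cell at all times, and others are switched on by heat-shock factor when unfolded proteins build up. Neurons do not divide and cannot dilute damaged proteins, and they also use HSPA8 with DNAJC6 to strip clathrin from recycled synaptic vesicles.

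The values, whose unit is not labelled, were taken as FPKM. These are fragment numbers divided by transcript length and by library size, so levels can be compared between genes. In these brains, 7 members had a mean of at least 100 FPKM, 27 lay between 10 and 100 FPKM, and 19 were under 10 FPKM. The 7 most abundant were HSP90AA1, DNAJA1, HSPE1, HSP90AB1, HSPA5, HSPH1 and HSPA8, and they held 54.3% to 58.4% of the summed FPKM of all members. Summed over all 53 members, the level was 2182, 2417 and 2756 FPKM in the Rongchang libraries and 2204, 2427 and 2451 FPKM in the wild boar libraries. The 2 groups overlapped in this sum, with both extremes in Rongchang.

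**Figure D1:**
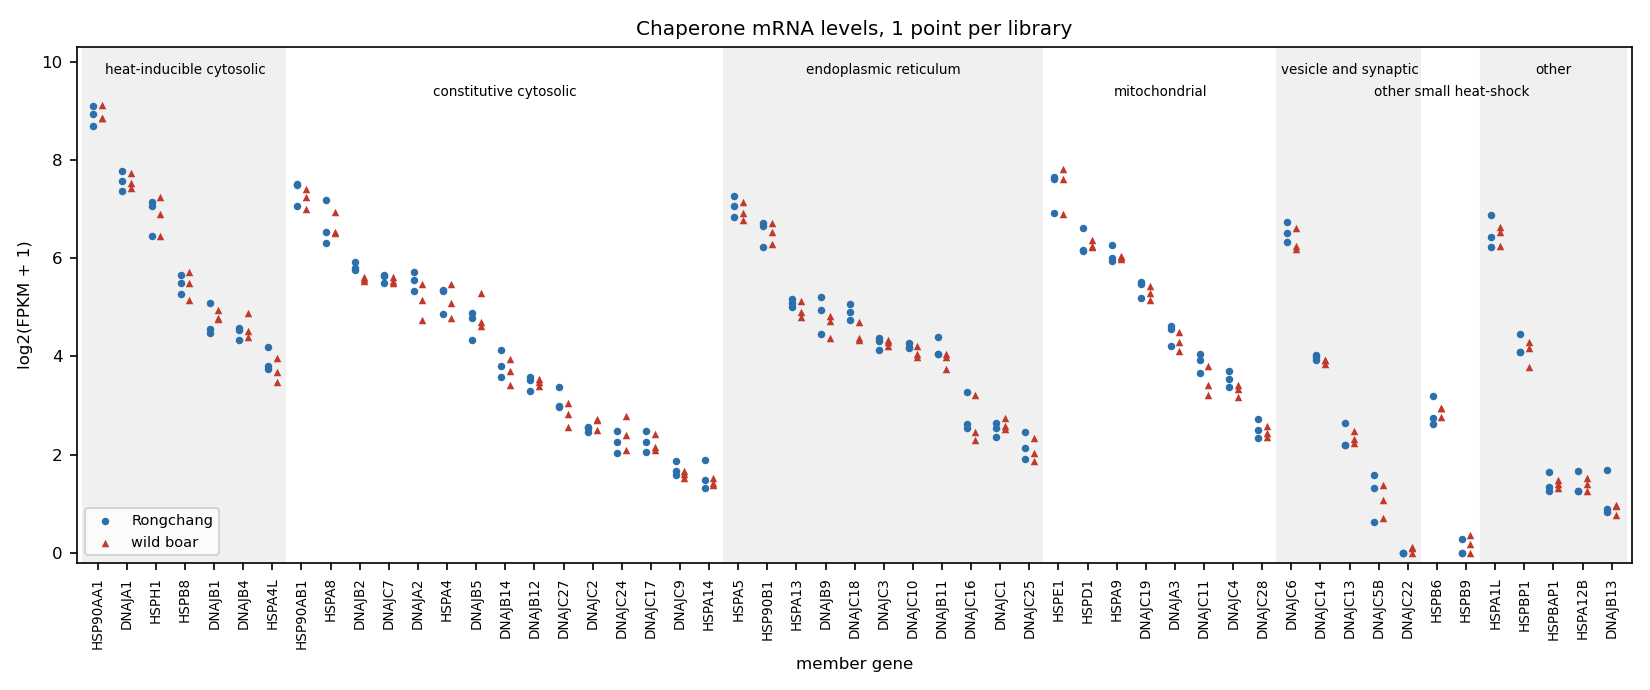
Level of each of the 53 members in each library, as log2(FPKM + 1), ordered by role and then by mean. Circles are the 3 Rongchang libraries and triangles the 3 wild boar libraries. HSP90AA1 is the highest member in every library (413 to 552 FPKM), and the points of both groups lie on top of each other for most genes.

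Some measures of the libraries themselves bear on every comparison. Transcripts of the 13 mitochondrially encoded genes took 45.2%, 39.9% and 30% of all FPKM in the Rongchang libraries and 46.8%, 41.0% and 43.6% in the wild boar libraries. The median FPKM over the genes tested was 7.16, 7.49 and 7.72 in Rongchang and 6.43, 7.02 and 6.40 in wild boar, so the groups were apart in the level of a typical gene. In the fit described next, the median fold change of all genes was accordingly -0.13, and 0.02 after each library was scaled to the same median. Fold changes are therefore given as fitted and, where it matters, relative to the median gene. Brain markers were present in all libraries: 5 of 6 neuron markers had a row and summed to 1666 to 2340 FPKM in Rongchang and 1595 to 2196 FPKM in wild boar. The 4 of 5 astrocyte markers found summed to 857 to 1103 and 876 to 1100 FPKM, and the 3 of 5 oligodendrocyte markers found to 1515 to 1780 and 1172 to 1940 FPKM, in the same order. The 3 of 6 endothelial markers found summed to 18.2 to 23.4 FPKM in Rongchang and 26.7 to 27.9 FPKM in wild boar, with no overlap. None of the markers found was at 0 in all libraries.

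Wild boar was compared with Rongchang in one fit over 13152 genes (limma on log2(FPKM + 1), Benjamini-Hochberg adjustment over all genes, threshold 0.05), in which 1 gene, no member, passed, or 0.00760% of the genes tested. Of the 53 members, 50 were expressed highly enough to be tested (at least 1 FPKM in at least 3 libraries), and 0 of them passed. Their adjusted p-values ran from 0.789 to 1. At an unadjusted p under 0.05, 1 member was lower in wild boar (DNAJC18) and 0 were higher, beside 5.42% lower and 0.578% higher over all genes. With single libraries left out, that count was 0 without Rongchang 2, Rongchang 3, wild boar 1 or wild boar 3, 1 without Rongchang 1, and 3 without wild boar 2 (DNAJA2, DNAJC11 and DNAJC18). In 2 members, DNAJB2 and DNAJC18, every wild boar library was below every Rongchang library, and in 0 members every wild boar library was above, beside 11.4% and 1.12% of all genes.

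Before scaling, 37 of 50 members (74.0%) had a fitted value below 0, beside 77.9% of all genes, whereas 13 of 50 did once the libraries were scaled to the same median, beside 6102 of 13152 genes. The members' fold changes ran from -0.44 to 0.20 with a median of -0.06, which lay 0.07 above the median gene. That distance was 0.02 without Rongchang 1 and 0.03 without wild boar 3. Relative to the median gene, 35 of 50 members (70.0%) lay above. The 95% confidence intervals of single members reached from -0.92 at the lowest bound to 0.75 at the highest, and the typical interval over all genes extended 0.43 to either side. An interval that spans 0 does not show equal levels.

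**Figure D2:**
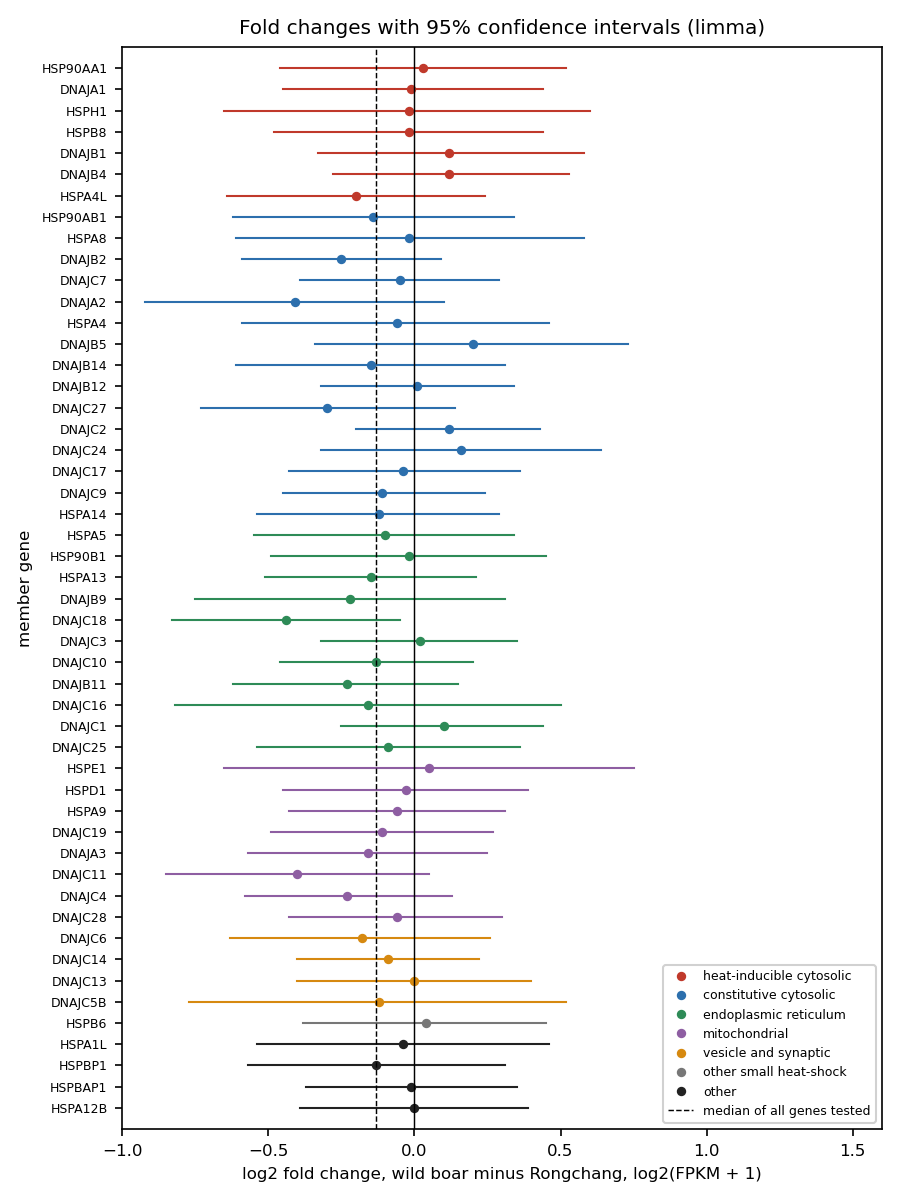
Fitted log2 fold change of each of the 50 members tested, as wild boar minus Rongchang, with the 95% confidence interval from limma. Colours give the role, the solid line is 0 and the dashed line is the median of all genes tested (-0.13). The interval of DNAJC18 (-0.83 to -0.05) is the one among the 50 that does not reach 0 before adjustment for the number of genes.

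Of 12 genes listed as heat-inducible cytosolic chaperones, 7 were measured: HSP90AA1, DNAJA1, HSPH1, HSPB8, DNAJB1, DNAJB4 and HSPA4L. HSPA1A, HSPA1B, HSPA6, HSPB1 and DNAJA4 were listed but not analysed here under those symbols, so the inducible sums below lack them. None of the 7 measured genes passed the test in either direction. Their fitted fold changes split into 3 above and 4 below 0, with a median of -0.01, and 6 of the 7 lay above the median gene. After median scaling the median of these 7 was 0.17.

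HSP90AA1, the stress-inducible form of cytosolic HSP90, was the most abundant of all members. Its level was 413, 487 and 548 FPKM in the Rongchang libraries and 459, 552 and 464 FPKM in the wild boar libraries. The ranges overlapped almost wholly, with means of 483 ± 67.5 and 492 ± 52.1 FPKM (SD, n = 3 each). Its fold change was 0.03 (95% interval -0.46 to 0.52), and the adjusted p from limma was 0.978.

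DNAJA1, a J-domain partner of HSPA8 in the cytosol, stood at 165, 188 and 218 FPKM in Rongchang and 172, 184 and 211 FPKM in wild boar. Libraries of the same number were close to each other, and the groups overlapped (fold change -0.01, SE 0.19). DNAJB1, the classical heat-inducible J-domain protein HSP40, was much less abundant, at 21.2, 22.6 and 33.2 FPKM in Rongchang and 26.2, 26.5 and 29.9 FPKM in wild boar. The Rongchang library numbered 3 was the highest of the 6, and the other 2 Rongchang libraries were the lowest. The fold change was 0.12 with an adjusted p of 0.902 from limma. DNAJB4, a close relative of DNAJB1, was at 22.2, 19.2 and 22.8 FPKM in Rongchang and 22, 20.1 and 28.5 FPKM in wild boar (fold change 0.12, SE 0.18).

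HSPH1, the inducible HSP110 protein that resets HSP70, had values of 86.9, 141 and 133 FPKM in Rongchang and 86.6, 151 and 118 FPKM in wild boar. Both libraries numbered 1 were the lowest and both numbered 2 the highest, whichever the breed. The group means were 120 ± 29.1 and 119 ± 32.3 FPKM (SD, n = 3 each), with a fold change of -0.02 (95% interval -0.65 to 0.60). HSPA4L, a further HSP110 protein, was at 12.4, 17.3 and 13 FPKM in Rongchang and 10.2, 14.6 and 11.8 FPKM in wild boar. Its fold change of -0.20 had an unadjusted p of 0.315 and an adjusted p of 0.857 in limma, and its groups overlapped.

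HSPB8, a small heat-shock protein that works with BAG3 to send clients to autophagy, was at 43.9, 37.6 and 49.6 FPKM in Rongchang and 51.8, 34.5 and 43.9 FPKM in wild boar. The lowest library in each group was the one numbered 2, and the fold change was -0.02. HSPB6, a small heat-shock protein best known from muscle, was measured at 5.20 to 8.11 FPKM in Rongchang and 5.84 to 6.76 FPKM in wild boar (fold change 0.04). HSPB9, a small heat-shock protein known from testis, was listed at 0 in 3 of the 6 libraries and reached 0.292 FPKM at most, below the filter.

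HSPA1L, an HSP70 gene that in other mammals is best known from testis, was at 85.8, 74.1 and 117 FPKM in Rongchang and 91.1, 75.3 and 99.0 FPKM in wild boar. These levels were close to those of HSPA8, and the fold change was -0.04 (SE 0.22, adjusted p from limma 0.970). The value is uncertain as to its gene. In RefSeq (Sscrofa11.1) the HSP70.2 gene, whose synonyms are HSPA1A and HSPA1B, overlaps HSPA1L, and the sequences of these genes were not compared here. A further gene, LOC100624113, overlaps HSPA1L as well. In the deposited table HSP70.2 was at 0.474, 0.437 and 0.432 FPKM in Rongchang and 0.528, 0.576 and 0.420 FPKM in wild boar, so it was far below HSPA1L in every library. How reads were divided between these genes was not stated, and HSPA1L was therefore kept out of both the inducible and the constitutive sums.

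Of 19 genes listed as constitutive cytosolic chaperones or J-domain partners, 15 were measured and tested. None passed, with 4 fitted values above and 11 below 0, a median of -0.06, and 10 of the 15 above the median gene. After median scaling the median of the 15 was 0.10.

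HSP90AB1, the constitutive form of cytosolic HSP90, was at 133, 181 and 179 FPKM in Rongchang and 127, 169 and 150 FPKM in wild boar. Both libraries numbered 1 were the lowest, and the groups overlapped, with means of 164 ± 27.4 and 149 ± 21.0 FPKM (SD, n = 3 each). The fold change was -0.14 (95% interval -0.62 to 0.34), which is that of the median gene to within 0.01.

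HSPA8, the constitutive HSP70 of the cytosol that also uncoats clathrin vesicles, was at 78.4, 91.7 and 145 FPKM in Rongchang and 91.6, 90.5 and 121 FPKM in wild boar. The libraries numbered 3 were the highest in both groups. The fold change was -0.02 (95% interval -0.61 to 0.58, adjusted p from limma 0.989). HSPA4, a constitutive HSP110 protein, was at 28.1, 39.3 and 39.6 FPKM in Rongchang and 26.6, 43.5 and 32.9 FPKM in wild boar, again with both libraries numbered 1 lowest and a fold change of -0.06.

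DNAJA2, a further J-domain partner of HSPA8, was at 39.0, 45.8 and 51.8 FPKM in Rongchang and 34.5, 43.5 and 25.7 FPKM in wild boar. The 2 lowest libraries were wild boar, while wild boar 2 lay within the Rongchang range. Its fold change of -0.41 (95% interval -0.92 to 0.10) had an unadjusted p of 0.0995 and an adjusted p of 0.792 in limma. DNAJB2, a J-domain protein enriched in neurons, was at 53.1, 54.6 and 59.9 FPKM in Rongchang and 48.3, 46.9 and 45.5 FPKM in wild boar. Here the groups did not overlap, with means of 55.9 ± 3.59 and 46.9 ± 1.43 FPKM (SD, n = 3 each). DNAJB2 had a fold change of -0.25 (SE 0.15), with an unadjusted p of 0.133 and an adjusted p of 0.810 in limma. In RefSeq DNAJB2 overlaps PTPRN, and whether counting used strand was not stated.

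DNAJC7, which hands clients between HSP70 and HSP90, was among the steadiest members, at 43.8 to 49.7 FPKM over all 6 libraries (fold change -0.05). DNAJB5 was at 19.2, 28.5 and 26.7 FPKM in Rongchang and 25.0, 37.9 and 23.5 FPKM in wild boar, with wild boar 2 the highest of the 6. Its fold change of 0.20 (SE 0.23, adjusted p from limma 0.875) was -0.01 without wild boar 2 and 0.03 without Rongchang 1. DNAJC27, a small GTPase with a J domain, was at 6.83, 9.41 and 6.90 FPKM in Rongchang and 6.05, 7.34 and 4.91 FPKM in wild boar (fold change -0.30, SE 0.19, adjusted p from limma 0.820). DNAJB12 and DNAJB14, which sit in the membrane of the endoplasmic reticulum with the J domain on the cytosolic side, had means of 10.1 and 13.5 FPKM in Rongchang and 10.1 and 12 FPKM in wild boar. The other members of this list were under 10 FPKM. They were DNAJC2 and HSPA14, which bind ribosomes, DNAJC24, needed for the diphthamide modification of an elongation factor, DNAJC17 and DNAJC9, a histone chaperone. Their fold changes ran from -0.12 for HSPA14 to 0.16 for DNAJC24.

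The inducible and constitutive cytosolic members were then set against each other within each library, which cancels the scaling of the library. Summed over the 7 inducible members, the level was 765, 913 and 1018 FPKM in Rongchang and 828, 982 and 908 FPKM in wild boar. Summed over the 15 constitutive members, it was 441, 543 and 597 FPKM in Rongchang and 438, 525 and 494 FPKM in wild boar. The groups overlapped in each sum.

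The ratio of the inducible to the constitutive sum was 1.74, 1.68 and 1.70 in Rongchang and 1.89, 1.87 and 1.84 in wild boar. Every wild boar library was above every Rongchang library, with means of 1.71 ± 0.0266 and 1.87 ± 0.0260 (SD, n = 3 each). The sums are dominated by abundant genes: HSP90AA1 alone made up 51.1% to 56.2% of the inducible sum. Without HSP90AA1 the ratio was 0.798, 0.785 and 0.787 in Rongchang and 0.842, 0.820 and 0.899 in wild boar. The groups also stayed apart in 22 of 22 ratios in which 1 member was left out, and without both HSP90AA1 and HSP90AB1 (1.14, 1.18 and 1.12 against 1.19, 1.21 and 1.29). Without HSPA8, however, they nearly touched, at 2.02 to 2.25 in Rongchang and 2.26 to 2.44 in wild boar. These ratios reuse the same libraries and most of the same sums, so they add no separate support to the full ratio. How often such ratios of other genes are apart was not tested. When each gene counted equally, they overlapped: the mean log2(FPKM + 1) of the inducible members exceeded that of the constitutive members by 1.86, 1.85 and 1.95 in Rongchang and by 1.96, 1.90 and 2.05 in wild boar. The ratio was formed after the single members had been seen and carries no test.

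Single pairs of an inducible and a constitutive relative overlapped between the groups in each of the 6 ratios formed. HSP90AA1 over HSP90AB1 was 3.11, 2.68 and 3.06 in Rongchang and 3.62, 3.27 and 3.09 in wild boar, so the lowest wild boar library lay just below the highest Rongchang library. HSPH1 over HSPA4 was 3.09 to 3.58 in Rongchang and 3.26 to 3.60 in wild boar. DNAJA1 over DNAJA2 was 4.23, 4.10 and 4.21 in Rongchang and 4.98, 4.23 and 8.23 in wild boar, where the high value of wild boar 3 goes with its low DNAJA2. DNAJB1 over DNAJA2 was 0.493 to 0.640 in Rongchang and 0.758, 0.611 and 1.17 in wild boar. HSPH1 over HSPA8 was 0.918 to 1.54 in Rongchang and 0.945 to 1.67 in wild boar. HSPA4L over HSPA4 had the lower mean in wild boar, unlike the other 5, at 0.440, 0.439 and 0.329 in Rongchang and 0.384, 0.336 and 0.357 in wild boar. As a share of all member FPKM, the inducible genes held 35.0%, 37.8% and 36.9% in Rongchang and 37.6%, 40.5% and 37.0% in wild boar, which overlapped.

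**Figure D3:**
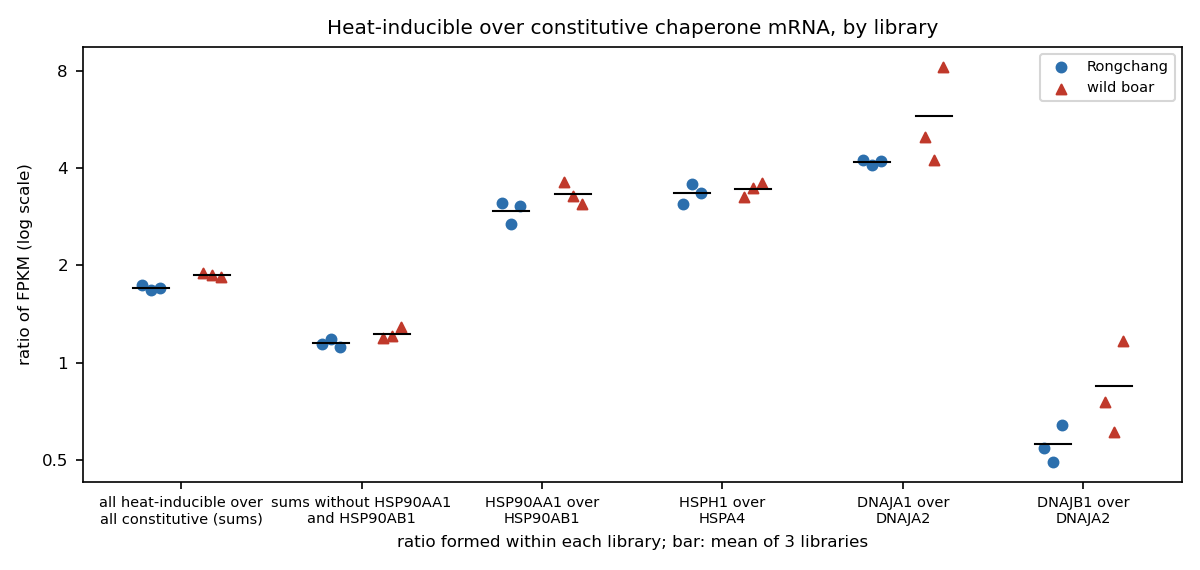
Ratios of inducible to constitutive cytosolic chaperone FPKM formed within each library, on a log scale. Circles are Rongchang libraries, triangles wild boar libraries, and bars the mean of 3. The summed ratio separates the groups (1.68 to 1.74 against 1.84 to 1.89), while HSP90AA1 over HSP90AB1, HSPH1 over HSPA4, DNAJA1 over DNAJA2 and DNAJB1 over DNAJA2 overlap.

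Immediate-early genes, which respond to handling and neural activity, were looked at beside the inducible chaperones. The 8 of 11 found summed to 83.9 to 93.0 FPKM in Rongchang and 69.7 to 93.3 FPKM in wild boar. Of the 7 tested, 3 had a fold change above 0 (EGR3 0.21, DUSP1 0.08 and EGR2 0.05) and 4 below, and none passed. JUNB, singled out after its values were seen, was the one of these whose groups did not overlap (15.7 ± 1.66 against 9.86 ± 0.546 FPKM, SD, n = 3 each; fold change -0.61, adjusted p from limma 0.724). The endothelial marker sum, given above, was also apart between the groups, with no single marker apart. Single markers of other cell types were apart too: the astrocyte gene ALDH1L1 averaged 7.38 ± 0.520 and 4.10 ± 1.41 FPKM, and the oligodendrocyte gene CNP 157 ± 17.6 and 119 ± 23.3 FPKM, Rongchang first (SD, n = 3 each). Neither passed after adjustment. The part of these genes in the inducible-to-constitutive ratio was not tested.

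All 11 genes listed as chaperones of the endoplasmic reticulum were measured and tested, and none passed. Their fold changes split into 2 above and 9 below 0 with a median of -0.13, equal to the median gene, and 6 of the 11 lay above it. After median scaling the median of the 11 was 0.04.

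HSPA5, the HSP70 of the endoplasmic reticulum known as BiP, was at 113, 133 and 152 FPKM in Rongchang and 109, 120 and 141 FPKM in wild boar. The order by animal number was the same in both groups, which overlapped (fold change -0.10, 95% interval -0.55 to 0.34). HSP90B1, the HSP90 of that compartment known as GRP94, was at 74.4, 104 and 99.2 FPKM in Rongchang and 77.5, 104 and 91.3 FPKM in wild boar (fold change -0.02). HSPA13, an atypical microsomal HSP70, was at 31.3 to 35.0 FPKM in Rongchang and 26.9 to 33.8 FPKM in wild boar. DNAJB9 (ERdj4), a target of the unfolded protein response, was at 29.6, 20.8 and 36.1 FPKM in Rongchang and 25.5, 19.7 and 27.4 FPKM in wild boar, with the libraries numbered 2 lowest.

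DNAJC18, a J-domain protein of the endoplasmic reticulum membrane, had the lowest fold change and the smallest p of all members. Its level was 25.7, 32.7 and 29.1 FPKM in Rongchang and 19.3, 24.9 and 19.8 FPKM in wild boar. The highest wild boar library lay just under the lowest Rongchang library, with means of 29.2 ± 3.49 and 21.3 ± 3.11 FPKM (SD, n = 3 each). The fold change was -0.44 (95% interval -0.83 to -0.05), or -0.30 relative to the median gene. In limma the unadjusted p was 0.0330 and the adjusted p 0.789, so the difference did not pass over all genes.

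Among the lumenal cofactors, DNAJB11 (ERdj3) was at 15.5 to 19.9 FPKM in Rongchang and 12.3 to 15.6 FPKM in wild boar (fold change -0.23, SE 0.17, adjusted p from limma 0.846). DNAJC3, an inhibitor of the stress kinase PERK, stood at 18.3 ± 1.75 and 18.5 ± 0.872 FPKM, and DNAJC10, a disulfide reductase, at 17.5 ± 0.610 and 15.9 ± 1.45 FPKM, Rongchang first (SD, n = 3 each). DNAJC16 was at 5.17, 8.67 and 4.82 FPKM in Rongchang and 4.52, 8.26 and 3.91 FPKM in wild boar, so the library numbered 2 stood out in both groups. DNAJC1 and DNAJC25 were at 4.74 and 3.55 FPKM on average in Rongchang and 5.12 and 3.27 FPKM in wild boar.

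Of 10 genes listed as mitochondrial chaperones, 8 were measured and tested, and none passed. One fitted value was above 0 and 7 were below, with a median of -0.09 (0.07 after median scaling), and 5 of the 8 lay above the median gene.

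HSPE1 and HSPD1 encode the small and large subunits of the mitochondrial folding chamber and are adjacent genes in RefSeq. HSPE1 was at 195, 120 and 201 FPKM in Rongchang and 195, 119 and 224 FPKM in wild boar. The library numbered 2 was low in both groups by nearly the same amount, and the fold change between the groups was 0.05 (95% interval -0.65 to 0.75). HSPD1 was at 71.3, 69.9 and 96.6 FPKM in Rongchang and 73.9, 75.1 and 81.7 FPKM in wild boar (fold change -0.03), without the low value in number 2 relative to number 1. The ratio of HSPE1 to HSPD1 was accordingly 2.74, 1.71 and 2.08 in Rongchang and 2.64, 1.59 and 2.75 in wild boar.

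HSPA9, the mitochondrial HSP70 that drives protein import, was at 60.1, 63.5 and 75.9 FPKM in Rongchang and 62.1, 64.8 and 63.8 FPKM in wild boar (fold change -0.06). DNAJA3, its J-domain partner in the matrix, was at 17.4, 22.4 and 23.5 FPKM in Rongchang and 16.2, 21.5 and 18.6 FPKM in wild boar. DNAJC19, a part of the import motor, stood at 41.3 ± 4.91 and 38.1 ± 3.93 FPKM, Rongchang first (SD, n = 3 each).

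DNAJC11, linked to the shape of the inner mitochondrial membrane, was at 11.7, 14.1 and 15.6 FPKM in Rongchang and 8.25, 12.9 and 9.69 FPKM in wild boar. Wild boar 2 lay within the Rongchang range and the other 2 wild boar libraries below it. DNAJC11 had a fold change of -0.40 (95% interval -0.85 to 0.05), with an unadjusted p of 0.0736 and an adjusted p of 0.789 in limma. DNAJC4 was at 9.33, 10.7 and 12 FPKM in Rongchang and 8.03, 9.65 and 9.16 FPKM in wild boar (fold change -0.23, SE 0.15). DNAJC28 averaged 4.78 and 4.51 FPKM, Rongchang first.

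Among the members listed as vesicle, endosome and synaptic, DNAJC6 (auxilin), which recruits HSPA8 to clathrin coats in neurons, was the most abundant. It was at 90.3, 106 and 79.9 FPKM in Rongchang and 74.5, 96.9 and 71.8 FPKM in wild boar, with the library numbered 2 highest in both groups and an overlap between them. DNAJC6 had a fold change of -0.18 (SE 0.19, adjusted p from limma 0.870). DNAJC14, placed here by the list alone and with no location measured, had the smallest coefficient of variation of all tested members, 5.06%, at 13.3 to 15.4 FPKM. DNAJC13, an endosomal protein, averaged 4.14 and 4.10 FPKM, Rongchang first. DNAJC5B, a relative of the synaptic vesicle chaperone, had the largest coefficient of variation, 46.9%, at 2.01, 0.543 and 1.48 FPKM in Rongchang and 1.59, 0.628 and 1.11 FPKM in wild boar. DNAJC22 was listed at 0 in 4 libraries and stayed under the filter.

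The remaining members were HSPBP1, HSPBAP1, HSPA12B and DNAJB13. HSPBP1, a factor that releases nucleotide from HSP70, was at 16.1, 16.0 and 21.0 FPKM in Rongchang and 12.8, 17.1 and 18.6 FPKM in wild boar. HSPA12B, an atypical HSP70 known from endothelial cells, averaged 1.65 and 1.64 FPKM, while the endothelial marker sum was apart between the groups. HSPBAP1 averaged 1.68 and 1.65 FPKM. DNAJB13, known from sperm and cilia, was at 0.716 to 0.956 FPKM in 5 libraries and 2.21 FPKM in Rongchang 3, and was not tested.

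**Figure D4:**
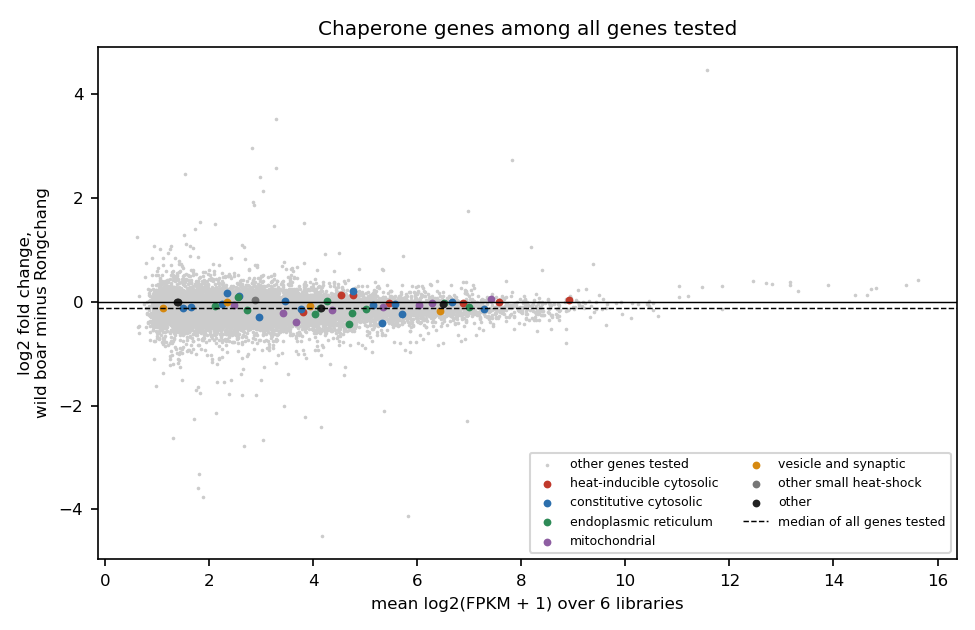
Log2 fold change (wild boar minus Rongchang) against mean log2(FPKM + 1) for all 13152 genes tested. Grey points are other genes and coloured points the 50 members by role. The members lie within the cloud of other genes, between -0.44 and 0.20, and mostly just above the dashed line of the median gene (-0.13).

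Several members were ordered by animal number rather than by breed. When the number was tested as a factor beside breed, a test added after the values were seen, 3 of 50 members passed at an adjusted p under 0.05, beside 6.34% of all genes. They were HSPE1 (adjusted p from limma 0.0292), HSPH1 and DNAJC16 (0.0416 each). At an unadjusted p under 0.05 there were 17 of 50 members, beside 31.3% of all genes, so the members' count was near the background.

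The order by number was not the same in all members. Both libraries numbered 1 were the lowest pair of the 6 in 12 of 50 members, beside 11.6% of all genes. These were HSP90AA1, HSP90AB1, HSP90B1, HSPA4, HSPA5, HSPA9, HSPH1, DNAJA1, DNAJA3, DNAJC2, DNAJC7 and HSPBAP1, and so they included all 3 HSP90 genes. In HSP90AA1, however, wild boar 1 (459 FPKM) lay just below wild boar 3 (464 FPKM). The unadjusted p of HSP90AA1 for the number was 0.256 in limma. Both libraries numbered 3 were the highest pair in 14 of 50 members, beside 11.8% of all genes, among them HSPA8, HSPA5, DNAJB1, DNAJA1, HSPD1 and HSPE1. Both numbered 2 were the highest pair in 11 of 50 members (20.7% of all genes), among them HSPH1, HSPA4L and DNAJC6. They were the lowest pair in 7 of 50 (15.6% of all genes), among them HSPE1, HSPB8 and DNAJB9.

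Cell type markers and other library measures moved with the number as well. The neuron marker sum was 1666, 2223 and 2340 FPKM in Rongchang and 1595, 2196 and 2091 FPKM in wild boar, lowest in both libraries numbered 1. The 4 of 5 microglia markers found summed to 82.3, 48.2 and 84.4 FPKM and to 84.2, 37.6 and 67.6 FPKM, lowest in both numbered 2. The 3 of 5 red blood cell markers found summed to 138, 68.0 and 190 FPKM and to 275, 58.5 and 213 FPKM, also lowest in those numbered 2. The skeletal muscle gene ACTA1, the one marker of 6 found for that tissue, was at 4.33, 45.7 and 7.21 FPKM and at 16.9, 47.3 and 4.23 FPKM, highest in those numbered 2. The part of these in the chaperone values was not tested, and the labels do not say what a number marks.

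**Figure D5:**
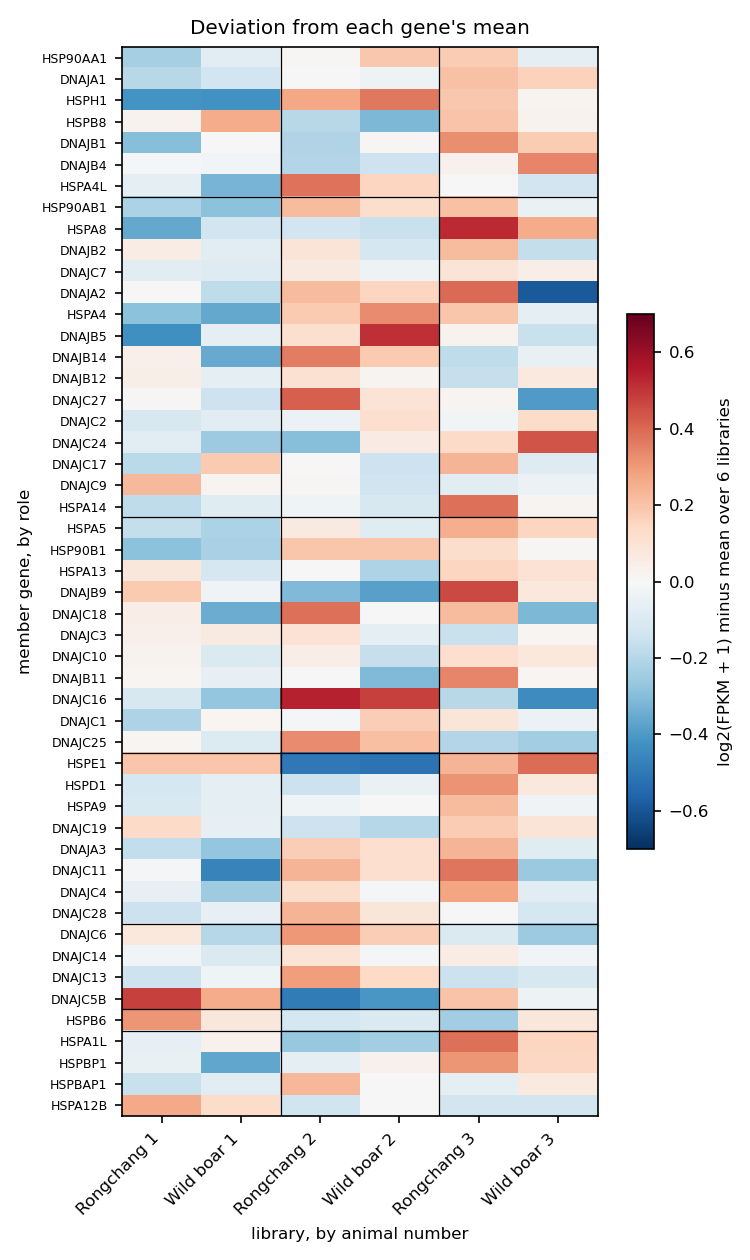
Deviation of each of the 50 members tested from its own mean over 6 libraries, in log2(FPKM + 1), with libraries set side by side by animal number and genes grouped by role. Red is above and blue below the gene's mean. HSPH1 and HSPE1 show the same colour in both libraries of a number, and DNAJC18 is bluer in the wild boar column of each pair.

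With the animal number as a block, 4 of 50 members were lower in wild boar and 0 higher at an unadjusted p under 0.05, beside 16.0% and 1.41% of all genes. The 4 were DNAJC18 (limma, unadjusted p 0.00310, adjusted p 0.228), DNAJC11 (0.0209, 0.245), DNAJC27 (0.0372, 0.273) and DNAJB2 (0.0403, 0.276). With the block and median scaling together, 3 members were higher (DNAJB5, DNAJB1 and DNAJB4) and 1 lower (DNAJC18), beside 5.47% and 5.02% of all genes. DNAJC18 was the one member on both lists. None passed after adjustment in either fit.

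The partners of these chaperones were taken from lists of the same pathways, and none of their genes passed the test. Of 6 genes listed for heat-shock factors and factor-binding proteins, 3 were tested (HSF1, HSF2 and HSBP1L1). HSF1, the master factor of the heat-shock response, was at 14.7, 14.9 and 15.4 FPKM in Rongchang and 14.1, 16.6 and 17.3 FPKM in wild boar (fold change 0.08, adjusted p from limma 0.910). HSF2 averaged 11.6 ± 0.876 and 10.5 ± 1.67 FPKM, Rongchang first (SD, n = 3 each).

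Of 26 cytosolic co-chaperones listed, one of which is the member HSPBP1, 18 were tested, with 2 fold changes above and 16 below 0 (3 below after median scaling) and a median of -0.07, or 0.06 above the median gene. The most abundant was PTGES3, the HSP90 co-chaperone p23, at 79.3 ± 7.36 and 78.5 ± 4.47 FPKM, Rongchang first (SD, n = 3 each). UNC45A, which brings myosin to HSP90, was at 11.6, 15.1 and 18.2 FPKM in Rongchang and 9.16, 10.8 and 10.2 FPKM in wild boar. The groups did not overlap, and the fold change was -0.51 (SE 0.18, limma unadjusted p 0.0239, adjusted p 0.789). TTC4, a further HSP90 partner, averaged 3.45 ± 0.493 and 2.75 ± 0.322 FPKM, Rongchang first. UNC45A and TTC4 were the 2 of 18 with every wild boar library below every Rongchang library, beside 11.4% of all genes.

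Of 15 subunits of the cytosolic folding chamber TRiC and of prefoldin, 10 were tested, and 10 of 10 lay below 0, beside 2 of 10 after median scaling (median -0.13, equal to the median gene). The most abundant was CCT8 at 75.7 ± 20.0 FPKM in Rongchang and 69.1 ± 8.59 FPKM in wild boar (SD, n = 3 each). CCT7 averaged 67.7 ± 16.4 and 56.2 ± 7.28 FPKM and CCT2 66.2 ± 14.7 and 58.3 ± 11 FPKM, in the same order. Of 22 genes for folding and the unfolded protein response in the endoplasmic reticulum, 13 were tested, with 1 above and 12 below 0 (6 below after median scaling) and the same median of -0.13. ATF6, a sensor of that response, was at 7.76, 10.2 and 6.08 FPKM in Rongchang and 6.25, 5.51 and 4.22 FPKM in wild boar (fold change -0.50, limma unadjusted p 0.0450, adjusted p 0.789). CALR, a calcium-binding chaperone and the most abundant of the list, was at 128 ± 16.2 and 112 ± 12.2 FPKM, and CRELD2 at 4.82 ± 1.34 and 3.49 ± 0.284 FPKM, Rongchang first (SD, n = 3 each). In 2 of the 13, CANX and CRELD2, every wild boar library was below every Rongchang library, beside 11.4% of all genes. Of 10 mitochondrial folding genes, 4 were tested and all 4 lay below 0, beside 2 after median scaling (median -0.17). TRAP1, the mitochondrial HSP90, was at 33.3 ± 4.45 and 28.2 ± 1.76 FPKM, and GRPEL2, which resets HSPA9, at 7.67 ± 1.88 and 5.45 ± 0.0526 FPKM, in the same order (SD, n = 3 each). The adjusted p of GRPEL2 in limma was 0.789. Groups did not overlap in TRAP1 and GRPEL2, 2 of the 4 tested, both lower in wild boar.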

How the data were processed

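Poly(A) RNA from 6 pig brains was sequenced, with strand marked by dUTP, per the labels' protocols. Per the submitters' processing notes, Cuffdiff, Cufflinks 2.2.1 and TopHat2 2.0.11 were used. Neither genome build nor annotation is given in the sources used here, and coordinates are left out. The deposited table holds 1 value per gene and library. Its header names no unit, and the values were taken as FPKM made by the authors, from the tools named and the values, which sum to 568921 to 687359 per library. FPKM carries no read counts, so the depth is unknown and no interval based on depth is given.

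Groups follow the breed or population named in the labels. The comparison was fitted in limma 3.58.1 (R 4.3.3) on log2(FPKM + 1), two-sided with a mean-variance trend, over genes that reached 1 FPKM in 3 or more libraries. A fold change is the log2 difference, wild boar minus Rongchang, and understates changes of low genes. The fit was tested on simulated data with independent noise for each gene and library. Those data lack the shared deviations of same-numbered libraries, so they do not show how the fit behaves with them. Members and lists were chosen with earlier results of these data known.

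By rule, the members named with full values were, per role, those with a mean of at least 50 FPKM, the 3 with the smallest p and a set of best-known chaperones, and from each partner list the most abundant gene and the 2 with the smallest p. The other members, HSP70.2, HSBP1L1, FKBP5, CANX, XBP1 and the single cell type and immediate-early markers printed fall outside it and were described after their values were seen. Symbols and neighbouring genes came from name tables, the latter from RefSeq (Sscrofa11.1), where 51 members have a chromosome and 17 overlap another gene.

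Deviations of same-numbered libraries from their group means had correlations of 0.283, 0.587 and 0.368, each over the 0.1 bound for pairing. Other pairs lay between -0.454 and 0.125, so Rongchang 1 with wild boar 3 (0.125) was over the bound too. The deviations within a group sum to 0, so the correlations of the pairs depend on each other. Same-numbered libraries were treated as paired in the replicate block only, from these correlations and not from the labels. The main fit holds no term for the number. Its intervals, SEs and p-values, printed wherever no block is named for the breed comparison, therefore still hold the spread between numbers. Alternatives were another pseudocount (0.1), other filters, median scaling, quantile normalization, no trend, the replicate block, and libraries left out.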

Additional observations from a re-analysis of the deposited data

How the results depend on the processing

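No member passed at an adjusted p under 0.05 under any of the 15 alternatives, where the lowest adjusted p of a member was 0.228. Over all genes, the 1 call became 3 with a pseudocount of 0.1, 3 without both libraries numbered 2, 0 with a mean filter of at least 5 FPKM, and 1 to 4 when each library was left out. The 1 member at an unadjusted p under 0.05 became 0 with median scaling, 0 with quantile normalization, 4 with the replicate block, 4 with the block and median scaling, 3 without both libraries numbered 2, and 0 to 3 with each library left out. The median of all genes, -0.13, was 0.02 with median scaling, 0.01 with quantile normalization and 0.02 with the block and median scaling. In the same order, the members' median of -0.06 was 0.09, 0.07 and 0.09 (-0.13 to -0.05 with each library left out). The inducible median of -0.01 was 0.17, 0.13 and 0.17, and 0.01 without both libraries numbered 2 (-0.08 to 0.10), and the constitutive median of -0.06 was 0.10, 0.08 and 0.10 (-0.17 to -0.02). Relative to the median gene, the members' median was 0.02 to 0.08, the inducible median 0.08 to 0.20 and the constitutive median -0.01 to 0.09. The inducible share of member FPKM was 1.78 percentage points higher in wild boar (means 36.6% in Rongchang and 38.4% in wild boar). As a share of all FPKM outside mitochondrially encoded genes it was 0.00907 points higher (means 0.251% and 0.26%, in the same order). The bases differ, so the sizes of these differences in points cannot be set against each other. The block changed no other call. With 3 libraries per group and unknown depth, low members carry the widest relative error.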

Other observations

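The subunits of TRiC and prefoldin, which fold actin and tubulin and share no symbol with the members, were also ordered by animal number. Both libraries numbered 3 were the highest pair of the 6 in 8 of 10 tested subunits, beside 11.8% of all genes, and both numbered 2 the lowest pair in 6 of 10, beside 15.6%. CCT7 was at 61.1, 55.6 and 86.4 FPKM in Rongchang and 58.6, 48.0 and 61.9 FPKM in wild boar. FKBP5, a glucocorticoid-responsive partner of HSP90, was at 3.61, 10.5 and 9.59 FPKM in Rongchang and 4.90, 11.8 and 11.2 FPKM in wild boar, with the library numbered 1 lowest in both groups. XBP1, a factor of the unfolded protein response, was at 57, 43.8 and 87.2 FPKM in Rongchang and 66.5, 43.2 and 65.7 FPKM in wild boar, lowest in both libraries numbered 2. TTR, a choroid plexus gene, was at 34.2 FPKM in wild boar 3, the library with the lowest DNAJA2 level, and at 0.120 to 3.01 FPKM in the other libraries. The other choroid plexus markers found were not high there: KCNJ13 was at 0.597 FPKM (0.441 to 0.873 elsewhere) and CLIC6 at 0.0453 FPKM (up to 0.325 elsewhere).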
